A study of Homo sapiens with 9 samples.

Results

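IGROV-1/OHP, a human ovarian carcinoma line obtained by exposing IGROV-1 cells to oxaliplatin, was compared with the parental, cisplatin-sensitive IGROV-1 line by microRNA (miRNA) bead array. The comparison rests on 6 of the 9 arrays of the series, 3 of IGROV-1/OHP and 3 of parental cells, chosen by sample title. The other 3 arrays are of IGROV-1/Pt1, a cisplatin-selected line from the same parent, and they enter here to estimate the spread and to show where IGROV-1/OHP stands apart from it. The design text calls the 3 samples of each line independent biological replicates, harvested by trypsin during exponential growth. Doses, exposure times and the number of clones behind IGROV-1/OHP are not given in the labels. The single oxaliplatin-selected line therefore stands for itself, and drug exposure and other differences between the cultures cannot be told apart.

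Oxaliplatin is a platinum drug that forms DNA adducts and carries a diaminocyclohexane ligand. miRNAs are short RNAs that guide Argonaute proteins to messenger RNAs through a seed near their 5′ end, and they lower the output of these messages. One miRNA can act on many messages.

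The table holds 1145 probes, and 705 were tested because they reached an intensity of 167, a level set at 2 times the most frequent intensity, on at least 3 of the 9 arrays. The third-highest intensity of a probe was 167.5 just inside this rule and 166.5 just outside it. Of the 440 probes put aside, 346 reached the level on 0 arrays, 57 on 1 and 37 on 2, and 8 of the 440 differed at least 2-fold between the mean log2 levels of IGROV-1/OHP and parental cells. The level is not a detection call. Of the 705, 566 reached it on all 3 IGROV-1/OHP and all 3 parental arrays and 12 on none of these 6, so those 12 were tested through IGROV-1/Pt1 alone. The probes carry Illumina identifiers that the files do not pair with miRNA names, so no miRNA, sequence or family is named, and cell type markers could not be checked. The first 2 probes in each direction are given by identifier and are rises 1 and 2 and falls 1 and 2 in the plots. The others are called rise 3 to rise 12 and fall 3 to fall 12, by the size of their change.

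Before any test, the arrays of IGROV-1/OHP were further apart than the parental arrays in every pair that held replicate 2. IGROV-1/OHP replicates 1 and 3 differed at least 2-fold at 31 probes, replicates 1 and 2 at 95, and replicates 2 and 3 at 121. Replicate 2 was thus the array that departed from its line, and it lay farthest from the line's median at 54.2% of the 705 probes. Within parental cells the corresponding counts were 32 to 54, and replicate 1 lay farthest from the median at 43.5% of the probes. Between the lines, the 9 pairs of 1 IGROV-1/OHP and 1 parental array differed at least 2-fold at 75 to 188 probes, with a median of 121. The count for IGROV-1/OHP replicates 2 and 3 therefore equals the median count between the lines, while the parental counts all lie below the lowest of the between-line counts.

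**Figure D1:**
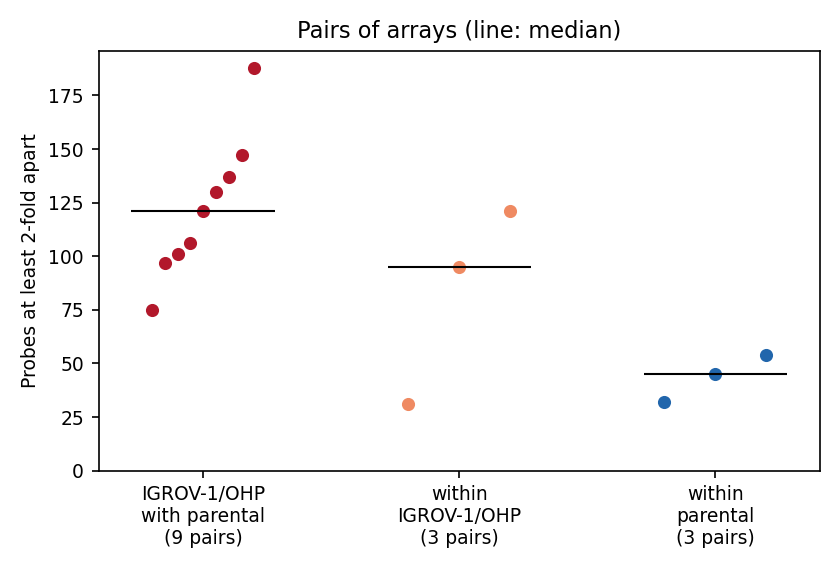
Each point is a pair of arrays, the vertical axis gives the number of the 705 probes that differed at least 2-fold between them, and the line is the median. Pairs of 1 IGROV-1/OHP and 1 parental array span 75 to 188 probes, pairs within IGROV-1/OHP 31 to 121 and pairs within parental cells 32 to 54.

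IGROV-1/OHP differed from parental cells at 93 probes, or 13.2% of those tested (limma, Benjamini-Hochberg adjusted p below 0.05). Of these, 55 were higher in IGROV-1/OHP, 7.8% of those tested, and 38 were lower, 5.39%. The probes that rose had a median log2 difference of 1.03, and those that fell of -1.23. The 55 that rose had a median intensity of 3501 on IGROV-1/OHP arrays and of 853 on parental arrays. For the 38 that fell it was 1406 on IGROV-1/OHP arrays and 5234 on parental arrays. The lines' arrays did not overlap at any of the 93 called probes, a property that 33% of all tested probes had, 20.6% with IGROV-1/OHP above and 12.5% with it below. Without IGROV-1/OHP replicate 2 the count was 96, with 64 higher and 32 lower, and without parental replicate 1 it was 68, with 39 higher and 29 lower. Without IGROV-1/OHP replicate 1 it was 60, with 32 higher, and without replicate 3 it was 67, with 36 higher. The called probes were not all the same. Of the 93, 67 were still called without IGROV-1/OHP replicate 2 and 64 without parental replicate 1. Without IGROV-1/OHP replicate 1 it was 55 of the 93, and without replicate 3 it was 62. After cyclic loess, another scaling of the arrays, 47 probes were higher and 49 lower, while after median scaling 55 were higher and 42 lower. The excess of rises over falls thus depended on which scaling was used.

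**Figure D2:**
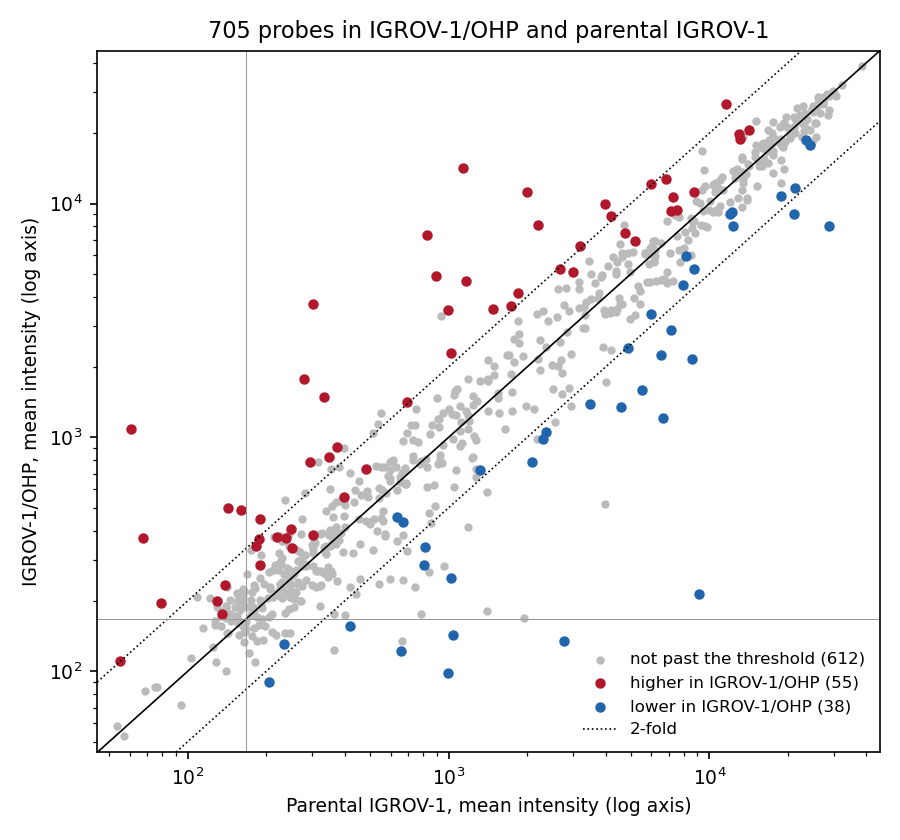
Mean intensity of each of the 705 probes in parental IGROV-1 (horizontal) and IGROV-1/OHP (vertical), both on log axes and averaged as log2 values over 3 arrays. The 55 probes that rose lie above the diagonal and the 38 that fell below it, dotted lines mark 2-fold and grey lines the intensity of 167.

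The called changes ranged from small to very large. The smallest called rise was 1.24-fold and the smallest called fall 1.26-fold. At 2-fold or more there were 30 rises and 23 falls, at 4-fold or more 10 rises and 7 falls, and at 8-fold or more 4 rises and 3 falls. These folds are as measured, and 7 of the 55 rises had all parental arrays below 167, while 4 of the 38 falls had all IGROV-1/OHP arrays below it. For those among the largest rises and falls described below, a fold is also given as a lower bound against 167. Of the rises, 1 lay below 167 on all 6 arrays of the 2 lines, so it has no such bound.

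The most common outcome was a difference shown to be small. For 423 probes, or 60% of those tested, the 95% interval of the log2 difference lay within 2-fold in either direction, and for 221 it lay within 1.5-fold. Of the 423, 25 also passed the test, which leaves 398 that did not pass and whose difference was bounded within 2-fold. For the remaining 30.4% of the probes neither was shown, since they did not pass and their interval reached 2-fold. Just inside the threshold the adjusted p was 0.0498 (limma), with a log2 difference of 0.31 at 1 of the probes there. Just outside it the adjusted p was 0.05004, with a log2 difference of -0.36.

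**Figure D3:**
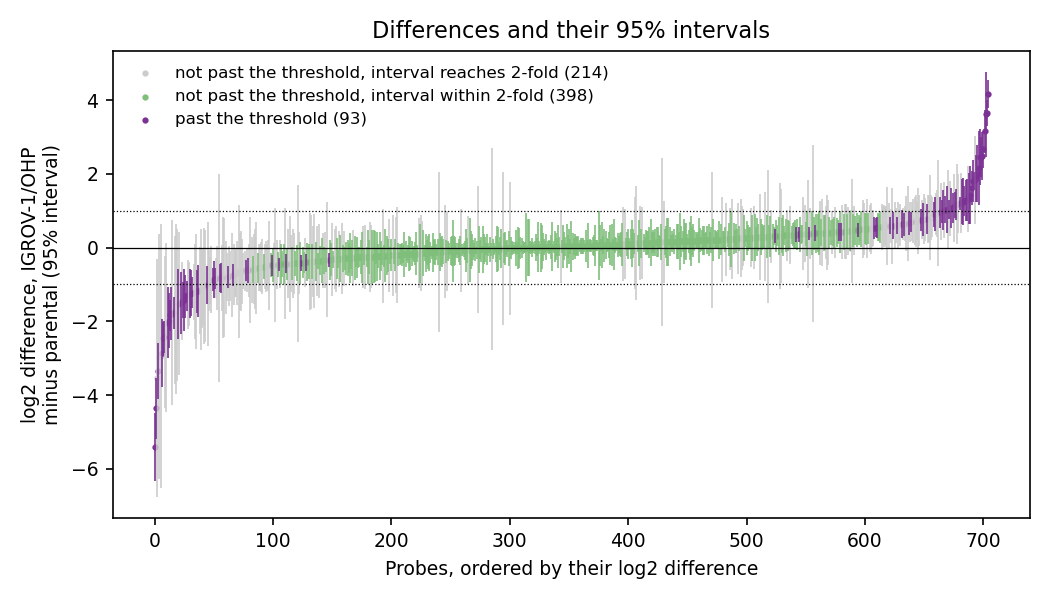
Differences between IGROV-1/OHP and parental cells on the log2 scale (vertical) for each of the 705 probes, ordered by size (horizontal), with its 95% interval from the limma fit. The 398 probes in green did not pass the threshold and have intervals within 2-fold (dotted lines), the 30.4% of probes in grey reach 2-fold, and the 93 in purple passed.

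The share of called probes, given here without a test between classes, was highest at middle levels. Among the 143 probes with a mean intensity of 10000 or more over both lines, 4 rose and 8 fell, 8.39% in all, and 132 were bounded within 2-fold. Between 1000 and 10000, 25 rose and 17 fell, 19.2% of that class, and 109 or 49.8% were bounded within 2-fold. Below 1000, 26 of 343 rose and 13 fell, 11.4% in all, and 53.1% were bounded within 2-fold. The bright probes had both the tightest replicates and the smallest called changes. Since the classes use the mean over both lines, a probe bright in only one line can count in a lower class. The size of the called changes in the bright class is thus partly set by its definition. Their median SD on the log2 scale was 0.092 for IGROV-1/OHP and 0.057 for parental cells. It was 0.27 for each line in the middle range, and 0.32 for IGROV-1/OHP and 0.26 for parental cells in the dim one. The median called fall was 1.54-fold among bright probes, 2.48-fold in the middle range and 2.68-fold among dim ones. The median called rise was 1.49-fold, 2.11-fold and 2.0-fold in the same order.

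At the top of the scale the lines were nearly the same. Of the 20 brightest probes of each line, 16 were shared, of the 50 brightest 40, and of the 100 brightest 88. The brightest probe stood at 38631 on all 6 arrays and the next at 32228 on all 6, since equal ranks share a value in the deposited table. Of the 20 brightest parental probes, 19 were bounded within 2-fold and 1 passed the test. That probe, fall 9, had 7546, 10919 and 6305 in IGROV-1/OHP replicates 1 to 3, against 28734 on all 3 parental arrays. No IGROV-1/OHP array came near the parental level, and the fall was 3.57-fold (log2 difference -1.84, SE 0.18, limma adjusted p = 6.83e-04). Its parental SD of 0 shows an unchanged rank rather than an exact level.

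The largest measured rise was at ILMN_3168804. It read 1154, 883 and 1253 on the IGROV-1/OHP arrays, against 52.8, 58.8 and 71.9 on the parental ones. All 3 parental arrays lay below 167 and all 3 IGROV-1/OHP arrays far above it, with no overlap. The rise was at least 6.50-fold against that level (measured log2 difference 4.16, SE 0.17, 95% interval 3.78 to 4.54, limma adjusted p = 6.16e-06). Under all 21 alternatives that tested this probe the difference passed the threshold, with values from 3.36, with an offset of 50, to 4.93, with each array's lowest intensity subtracted.

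ILMN_3168389 read 14076, 13679 and 14974 on the IGROV-1/OHP arrays, against 1362, 1042 and 1032 on the parental ones. The 3 arrays of each line lay close together, and the probe was among the bright ones in IGROV-1/OHP and in the middle of the range in parental cells. It rose 12.5-fold (log2 difference 3.65, SE 0.15, 95% interval 3.30 to 3.99, limma adjusted p = 6.16e-06). Both ends of this change were measured well above the filter level, so it is the largest rise that is not a bound. Leaving out any 1 array gave log2 differences of 3.58 to 3.78.

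Rise 3 read 3255, 3952 and 3952 on the IGROV-1/OHP arrays, against 401.2, 199.1 and 346.8 on the parental ones, or 12.2-fold (log2 difference 3.61, SE 0.49). Rise 4 read 7749, 6682 and 7621 on the IGROV-1/OHP arrays, against 614, 1129 and 816 on the parental ones, or 8.87-fold (log2 difference 3.15, SE 0.25). These probes share a wider spread on the parental side, where the highest array was at least 1.5 times the lowest. Rises 5 to 12 were 3.50-fold to 6.33-fold as measured. Of these, rise 8 read 339, 284 and 531 on the IGROV-1/OHP arrays, against 78.0, 62.6 and 63.6 on the parental ones, which is at least 2.22-fold. It was the only other one of the 12 with every parental array below 167. Rise 6 showed the departure of IGROV-1/OHP replicate 2, with 13296, 6846 and 15285 on the IGROV-1/OHP arrays, against 1831, 2274 and 1907 on the parental ones. Replicate 2 was the lowest IGROV-1/OHP array at 9 of the 12 rises and at 8 of the 12 falls, a share not counted over all tested probes.

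The largest fall was at ILMN_3168064. It read 276, 115 and 307 on the IGROV-1/OHP arrays, against 10482, 8959 and 8102 on the parental ones. The probe lay around the filter level in IGROV-1/OHP, with 2 of the 3 arrays above 167, and close to the bright range in parental cells. As measured it fell 42.7-fold (log2 difference -5.42, SE 0.40, 95% interval -6.34 to -4.49, limma adjusted p = 1.96e-04). Leaving out any 1 array gave log2 differences of -5.68 to -4.97.

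ILMN_3168701 read 124, 103 and 189 on the IGROV-1/OHP arrays, against 2615, 2679 and 3009 on the parental ones. The parental arrays were tight, and 1 of the 3 IGROV-1/OHP arrays reached 167. The fall was 20.6-fold as measured (log2 difference -4.36, SE 0.35, 95% interval -5.18 to -3.54, limma adjusted p = 2.0e-04). The background left in dim values bears on its size, since the log2 difference was -4.66 with each array's lowest intensity subtracted and -3.92 with an offset of 50.

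Fall 3 read 126, 65.8 and 114 on the IGROV-1/OHP arrays, against 769, 842 and 1534 on the parental ones, at least 5.98-fold lower. Fall 6 read 148.0, 95.8 and 128.1 on the IGROV-1/OHP arrays, against 703, 584 and 687 on the parental ones, at least 3.93-fold lower. Both lay below 167 on every IGROV-1/OHP array and above it on every parental array. Fall 6 entered the test through the parental arrays alone, so its call carries no weight. Fall 4 had one IGROV-1/OHP array apart, with 120, 275 and 88.2 against 788, 1266 and 1118 in parental cells. Fall 5 remained well measured in both lines, with 1362, 1032 and 1244 on the IGROV-1/OHP arrays, against 5408, 8013 and 6760 on the parental ones, 5.51-fold lower (log2 difference -2.46, SE 0.19). Falls 7 to 12 spanned 2.89-fold to 4.09-fold as measured.

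**Figure D4:**
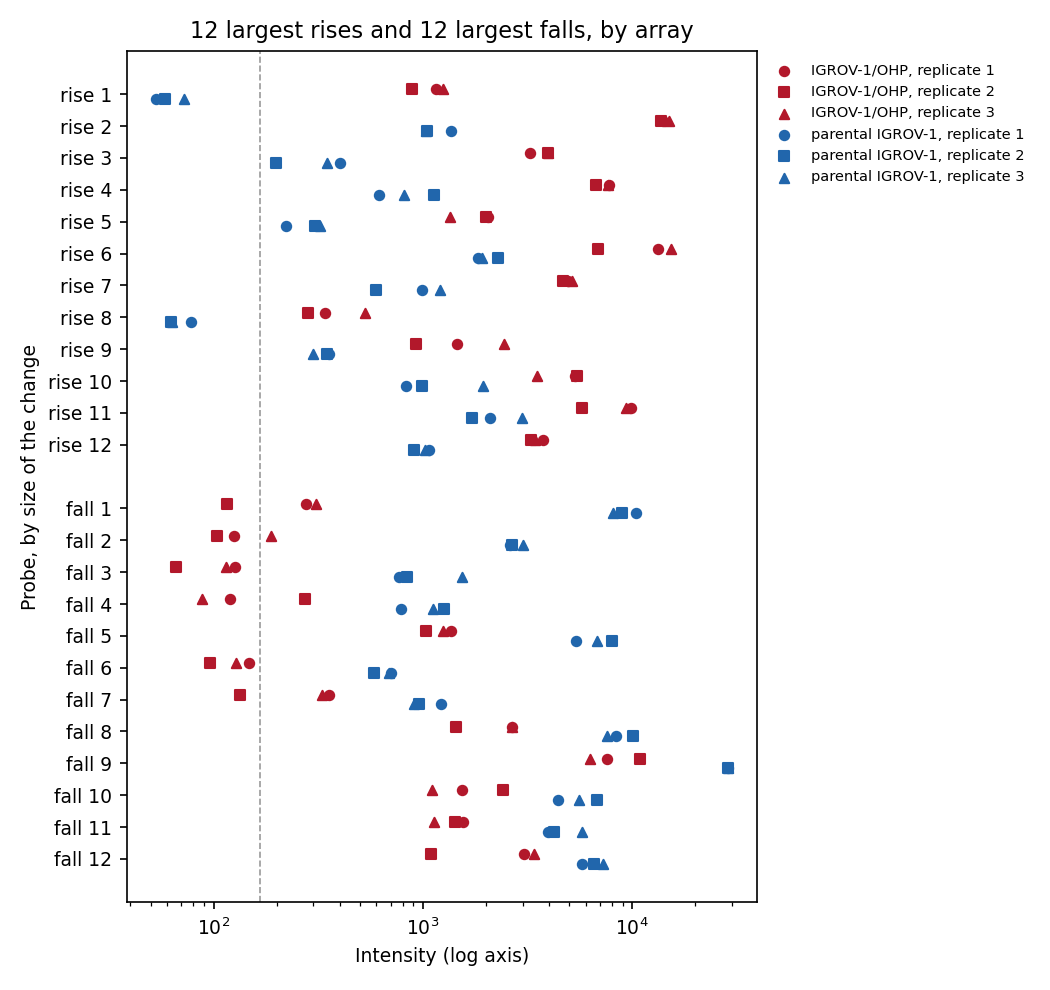
Intensity on each IGROV-1/OHP array (red) and each parental array (blue) for the 12 largest rises and the 12 largest falls, on a log axis with the level of 167 dashed. The lines do not overlap at any of the 24 probes, which the choice of these probes asked for.

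Of these 24 probes, 21 passed the threshold under every alternative that tested them. The exceptions were rise 9, fall 7 and fall 12. The 21 include fall 6, which entered the test through the parental arrays alone, so its passing carries no weight. Rise 9 read 1458, 922 and 2446 on the IGROV-1/OHP arrays, against 355, 348 and 297 on the parental ones, and its adjusted p (limma) was 0.0166, with 0.0526 without IGROV-1/OHP replicate 1 and 0.057 without parental replicate 3. Fall 7 read 354.6, 133.5 and 329.1 on the IGROV-1/OHP arrays, against 1223, 961 and 906 on the parental ones, with an adjusted p of 0.0175 (limma) and of 0.0589 without parental replicate 1. Fall 12 read 3038, 1096 and 3413 on the IGROV-1/OHP arrays, against 5744, 6590 and 7246 on the parental ones. Its adjusted p was 0.0498 (limma), and it passed under 10 of 22 alternatives, with log2 differences of -1.83 to -1.01. It failed without IGROV-1/OHP replicate 1 and without each of the 3 parental and the 3 IGROV-1/Pt1 arrays in turn.

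A set of 9 tested probes reached 167 on every array of one line and on none of the other. Of these, 5 did so in the resistant line and 4 in the parental one, and 4 of each passed the test. One of the 5 and 3 of the 4 also lay below the level on all IGROV-1/Pt1 arrays. Those were tested only because of the line in which they were high, so that they had to differ and their calls carry no weight. In IGROV-1/OHP the 5 include rise 1 and rise 8, and the other 3 averaged 200.4 to 235 in IGROV-1/OHP, against 131 to 156 in parental cells. In parental cells the 4 include fall 3 and fall 6. The remaining pair averaged 131 ± 13.7 and 93.9 ± 35.1 for IGROV-1/OHP, against 235 ± 27.4 and 206.3 ± 31.7 for parental cells (SD, n = 3 each). Those 5 probes thus averaged between 93.9 and 235 in either line.

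Large differences that did not pass were mostly lower values, with a wide spread in both lines. Among probes that did not pass, 9 had higher and 22 lower levels in IGROV-1/OHP by 2-fold or more, and 0 and 5 by 4-fold or more. At the 31 probes with 2-fold or more, the median log2 SD was 0.46 for IGROV-1/OHP and 0.55 for parental cells. Over all tested probes it was 0.25 and 0.22. Of the 22, 16 had their highest parental value on replicate 1, a share not counted over all tested probes. The largest read 239, 147 and 137 on the IGROV-1/OHP arrays, against 13679, 174 and 3129 on parental replicates 1 to 3 (log2 difference -3.53, SE 1.38, limma adjusted p = 0.15). The third largest read 1007, 651 and 212 on the IGROV-1/OHP arrays, against 22007, 299.4 and 9550 on the parental ones. In both, a parental array reached the bright range while another lay at the level of the resistant cells, and the lines overlapped. The largest positive difference among them read 2476, 3498 and 4163 on the IGROV-1/OHP arrays, against 961, 902 and 935 on the parental ones (log2 difference 1.82, SE 0.51, limma adjusted p = 0.0563). Its arrays did not overlap, and 18 of the 31 probes in this class shared that property.

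IGROV-1/Pt1 was set beside IGROV-1/OHP at the 24 probes, with the direct difference of the resistant lines as the test. Both comparisons with parental cells use the same parental arrays. The 24 were chosen for their change in IGROV-1/OHP, whose arrays also enter the direct test. Between the resistant lines, 16.6% of the 705 probes differed (limma, adjusted p below 0.05). Among the 12 rises, 3 differed, each higher in IGROV-1/OHP. Among the 12 falls, 9 differed, 8 of them lower in IGROV-1/OHP and 1 higher. Leaving out 1 array brought the total of 12 to between 6 and 11, with 6 without IGROV-1/Pt1 replicate 2 or 3 and 7 without IGROV-1/Pt1 replicate 1 or IGROV-1/OHP replicate 1. Whether rises and falls differ in this respect was not tested.

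The first 2 rises stood at like levels in both resistant lines. ILMN_3168804 averaged 1097 ± 191 in IGROV-1/OHP, against 1146 ± 75.1 in IGROV-1/Pt1 (SD, n = 3 each), with a 95% interval of the log2 difference of -0.46 to 0.31. ILMN_3168389 averaged 14243 ± 664 in IGROV-1/OHP, against 12925 ± 1832 in IGROV-1/Pt1, with an interval of -0.19 to 0.49. For both, a 2-fold difference between the resistant lines lies outside the interval. The 3 rises that differed were rises 4, 6 and 10. Against parental cells, 11 of the 12 rises were also called higher in IGROV-1/Pt1 (limma, adjusted p below 0.05). Only rise 10 was not. The share of all tested probes called higher in IGROV-1/Pt1 was not counted. The rises were also chosen with the same parental arrays, so this count is not separate support. At rises 4, 6 and 10 the log2 change from parental cells was 2.15, 1.44 and 0.69 for IGROV-1/Pt1. Rises 4 and 6 thus rose in both resistant lines, and the direct test concerns the size of the rise. Rise 4 averaged 7351 ± 583 in IGROV-1/OHP, against 3740 ± 809.6 in IGROV-1/Pt1. Rise 10 averaged 4774 ± 1106 in IGROV-1/OHP, against 1901 ± 270.4 in IGROV-1/Pt1. Each of the 3, like falls 8 and 10, missed the threshold under some alternatives.

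Falls 1 to 5 and fall 9 differed from IGROV-1/Pt1 under every alternative. ILMN_3168064 averaged 233 ± 103 in IGROV-1/OHP, against 7383 ± 2584 in IGROV-1/Pt1. Its log2 change from parental cells was -5.42 for IGROV-1/OHP and -0.36 for IGROV-1/Pt1. ILMN_3168701 averaged 139 ± 44.5 in IGROV-1/OHP, against 2290 ± 1173 in IGROV-1/Pt1, with changes of -4.36 for IGROV-1/OHP and -0.38 for IGROV-1/Pt1. At falls 3, 5 and 9 the change was -3.34, -2.46 and -1.84 for IGROV-1/OHP, against -0.02, 0.06 and 0.01 for IGROV-1/Pt1. Fall 4 averaged 161 ± 99.8 in IGROV-1/OHP, against 15729 ± 370.2 in IGROV-1/Pt1, which lay above the parental level. Fall 6 averaged 124 ± 26.4 in IGROV-1/OHP, against 126 ± 18.2 in IGROV-1/Pt1. Every array of both resistant lines lay below 167 there, so these values cannot show whether the lines share a level. Fall 11 was higher in IGROV-1/OHP, at 1367 ± 216, than in IGROV-1/Pt1, at 843 ± 102, and this difference failed under 10 of 21 alternatives. Its change from parental cells was -1.76 for IGROV-1/OHP and -2.46 for IGROV-1/Pt1, so it fell in both. Fall 12 also fell in both, by -1.53 for IGROV-1/OHP and -2.65 for IGROV-1/Pt1, and the direct test did not pass there.

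**Figure D5:**
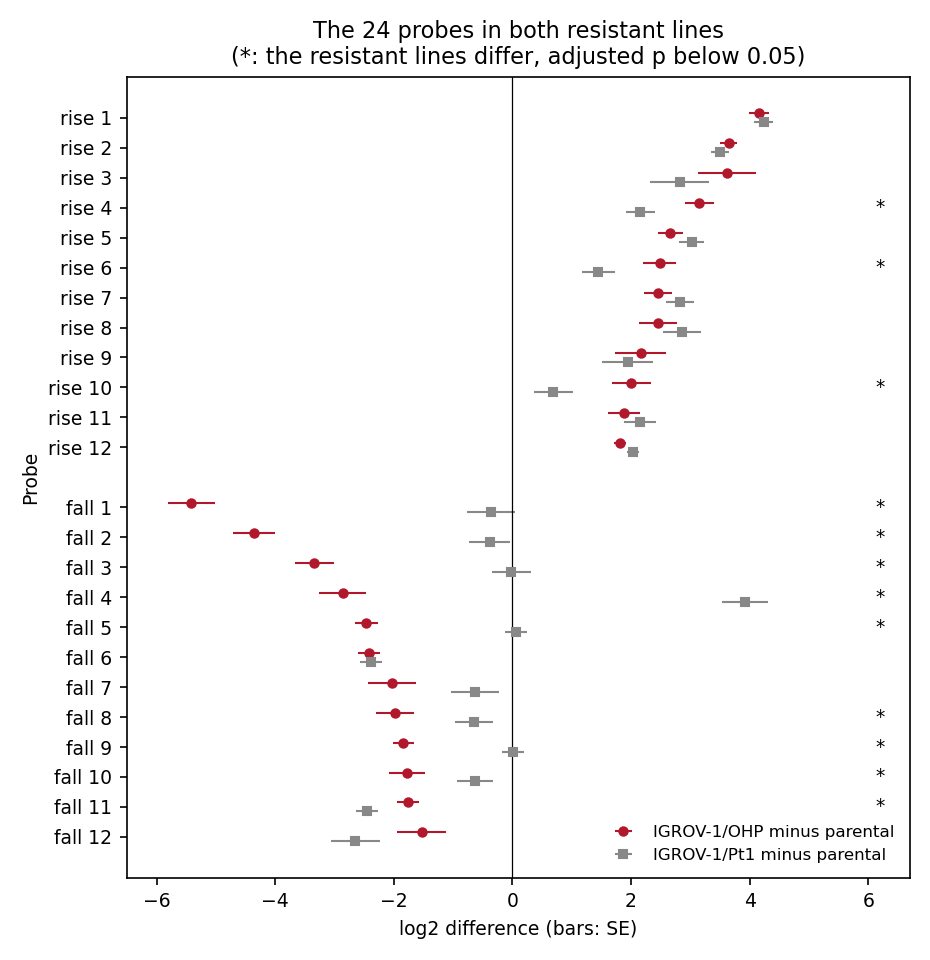
The log2 difference from parental cells, with its standard error, of the 12 largest rises and 12 largest falls of IGROV-1/OHP, shown for IGROV-1/OHP (red) and IGROV-1/Pt1 (grey), which share the parental arrays. Stars mark the 3 rises and 9 falls at which the resistant lines differed by the direct test.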

How the data were processed

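Total RNA of 9 samples was labelled with biotin and hybridised to 1-colour Illumina miRNA bead arrays, per the labels' protocols. The deposited table holds linear probe intensities, and BeadStudio is named in the submitters' processing notes. No source names its settings. Sorted by size, the values of different arrays lay within 2.67% of each other at each rank, the form of quantile normalization, so they were not normalized again, and a change in total miRNA cannot be seen. A second deposited table was not used, since its 18 columns match no sample label. Of the 1145 identifiers, 0 occurred in the reference tables, so the planned miRNA lists were not tested and neqc was not run.

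On log2 intensities without an offset, limma 3.58.1 (R 4.3.3) fitted 3 line means over 9 arrays (6 residual degrees of freedom), with eBayes and Benjamini-Hochberg adjustment over 705 probes, two-sided at 0.05. The fit was tested on simulated data. Levels are means ± SD of intensities, and folds come from mean log2 values. The median standard error was 0.20, and 3 arrays per line limit the precision. The 24 probes described are the 12 largest rises and 12 largest falls among called probes whose arrays do not overlap. The members, rules and level were chosen with earlier results of these data known. Same-numbered replicates of IGROV-1/OHP and parental cells had correlations of their deviations of 0.0057 to 0.12, so the numbers were not taken as pairs. For IGROV-1/OHP and IGROV-1/Pt1 these correlations were -0.18, 0.33 and 0.43, and -0.47 to 0.24 for unlike numbers. With the replicate number as a block, the described probes that differ between these lines were 7 instead of 12.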

Additional observations from a re-analysis of the deposited data

Results flagged for a closer look

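At 12 of the 24 probes the change in IGROV-1/OHP differed from that in IGROV-1/Pt1 by the direct test of the resistant lines (limma, adjusted p below 0.05). Over all 705 tested probes the share was 16.6%. The 24 were chosen for their change in IGROV-1/OHP, whose arrays also enter this test. Of the 12, 6 passed under every alternative. The values are log2 differences with IGROV-1/OHP first, so a positive one means higher there than in IGROV-1/Pt1. They were 0.996 at rise 4, 1.04 at rise 6 and 1.31 at rise 10. Among the falls they were -5.05 at ILMN_3168064, -3.98 at ILMN_3168701, -3.32 at fall 3, -6.78 at fall 4 and -2.52 at fall 5. They were -1.33 at fall 8, -1.85 at fall 9, -1.15 at fall 10 and 0.69 at fall 11. The largest adjusted p among them was 0.0435 (limma). Against parental cells, rises 4 and 6 were also called higher in IGROV-1/Pt1, and fall 11 was also called lower there. All 3 arrays of IGROV-1/OHP were compared with all 3 of IGROV-1/Pt1. No array of one line overlapped the other at any of the 12, a share not counted over all tested probes. The 12 were picked by the direct test, so this lack of overlap is not separate support.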

How the results depend on the processing

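The number of called probes was 45 at an adjusted p of 0.01, with 27 higher and 18 lower, and 53 with at least 2-fold asked for, with 30 higher and 23 lower. Array weights, a single weight per array estimated probe by probe and shared by all probes, were lowest for IGROV-1/OHP replicate 2, at 0.265. With these weights there were 139 calls, 87 of them higher. Leaving out 1 array gave 60 to 102 calls, 32 to 64 higher and 26 to 38 lower, 22 to 24 of the 24 described probes, and 6 to 11 of those that differ from IGROV-1/Pt1. With no filter 792 of 1145 probes were bounded within 2-fold. The replicate block gave 67 calls and 23 of the 24 described probes, and 7 that differ from IGROV-1/Pt1. No value of the 24 reversed its direction: 505 of 520 values against parental cells kept their side of the threshold, as did 202 of 248 against IGROV-1/Pt1. The cause of these shifts was not tested. Dim probes keep a background, which understates their folds. Normalization with neqc was not run.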
